A study of Homo sapiens with 8 samples.

Results

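The 9 genes described here are FHIT, WWOX, MACROD2, IMMP2L, LSAMP, NAALADL2, LRP1B, CTNNA3, and DLG2, very long human genes that lie at common fragile sites, and they were taken by name from GENCODE release 44 on hg38, as 9 of 19970 protein-coding genes on chromosomes 1 to 22 and X. An origin was placed in a gene when it overlapped the gene body by at least 1 bp. The origins came from SNS-seq, which sequences the short nascent strands of DNA made where replication has just started. The assay was run on HCT116 p53-/- colon cancer cells (WT) and on the ORC1Δ, ORC2Δ, and ORC5Δ lines, labelled ORC1KO, ORC2KO, and ORC5KO, which were made from them with CRISPR–Cas9 and each lack 1 subunit of the origin recognition complex. All 4 lines, WT included, lack p53, and each was sequenced in 2 biological replicates, for 8 samples. The labels name no treatment. Each knockout is represented by 1 line, so the loss of the subunit and other traits of that line cannot be told apart. For ORC2Δ cells the study mentions an earlier report of a trace of truncated ORC2 protein, which its own blots did not detect.

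Common fragile sites are regions that show gaps and breaks on metaphase chromosomes when replication is slowed. Many of them lie in genes of extreme length, which replicate late in the cell types where they break, and a shortage of replication origins inside such genes is one of the textbook accounts of their fragility. The origin recognition complex marks the places where the MCM helicase is loaded before S phase, and most loaded helicases stay dormant unless forks slow. FHIT is a hydrolase of diadenosine triphosphate, WWOX is an oxidoreductase with WW domains, MACROD2 removes ADP-ribose from proteins, and IMMP2L is a subunit of a mitochondrial inner membrane peptidase. LSAMP is a cell adhesion protein of neurons, NAALADL2 is a relative of glutamate carboxypeptidase, LRP1B is a receptor of the LDL receptor family, CTNNA3 is an alpha-catenin, and DLG2 is a scaffold protein of synapses.

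Together the gene bodies cover 14.2 Mb. DLG2 is the longest at 2.17 Mb (chr11:83455012-85628335, minus strand), followed by MACROD2 at 2.06 Mb (chr20:13995369-16053197, plus strand), LRP1B at 1.9 Mb (chr2:140231423-142131016, minus strand), and CTNNA3 at 1.85 Mb (chr10:65912457-67763637, minus strand). FHIT covers 1.5 Mb (chr3:59747277-61251459, minus strand), NAALADL2 1.37 Mb (chr3:174438573-175810548, plus strand), LSAMP 1.34 Mb (chr3:115802374-117139389, minus strand), WWOX 1.11 Mb (chr16:78099400-79212667, plus strand), and IMMP2L 0.9 Mb (chr7:110662644-111562517, minus strand). By length they rank between 5 (DLG2) and 99 (IMMP2L) among the protein-coding genes. Their GC content was between 34.8% (LRP1B) and 42.6% (WWOX), with a median of 37%, while the median of the 313 other protein-coding genes of at least 500 kb was 38.3%.

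The deposited data gave 1 list of origins per line and 3 tables of read counts, each with WT and 1 of the knockout lines side by side. A list holds the peaks found in both replicates, and a table holds the reads of the merged replicates. With 1 value per line, the spread between replicates is unknown, and no test between lines was run. Every interval below is a 95% interval that covers counting error only, exact Poisson for numbers of origins and exact Clopper-Pearson for shares of reads. On chromosomes 1 to 22, X, and Y the lists held 30197 (WT) to 41332 (ORC5Δ) origins, and the tables held 6416892 to 8523971 reads per line over all contigs.

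A property of the lists bears on every count in these genes. In each list, the origin farthest from any other lay 26017 bp (WT), 25683 bp (ORC1Δ), 21839 bp (ORC2Δ), or 20458 bp (ORC5Δ) from its nearest neighbour, and no origin stood alone beyond that distance. The study's methods describe the clustering of neighbouring peaks into initiation zones, and whether the lists were limited to such clusters is not given in the sources used here. A gene with 0 listed origins may thus still hold isolated peaks, and the limit was wider in WT than in ORC5Δ cells. With the smallest limit, 20458 bp, set for every list, a choice made after seeing the data, the 9 genes held 6, 20, 13, and 28 origins in WT, ORC1Δ, ORC2Δ, and ORC5Δ cells, against 6, 22, 13, and 28 without it.

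**Figure D1:**
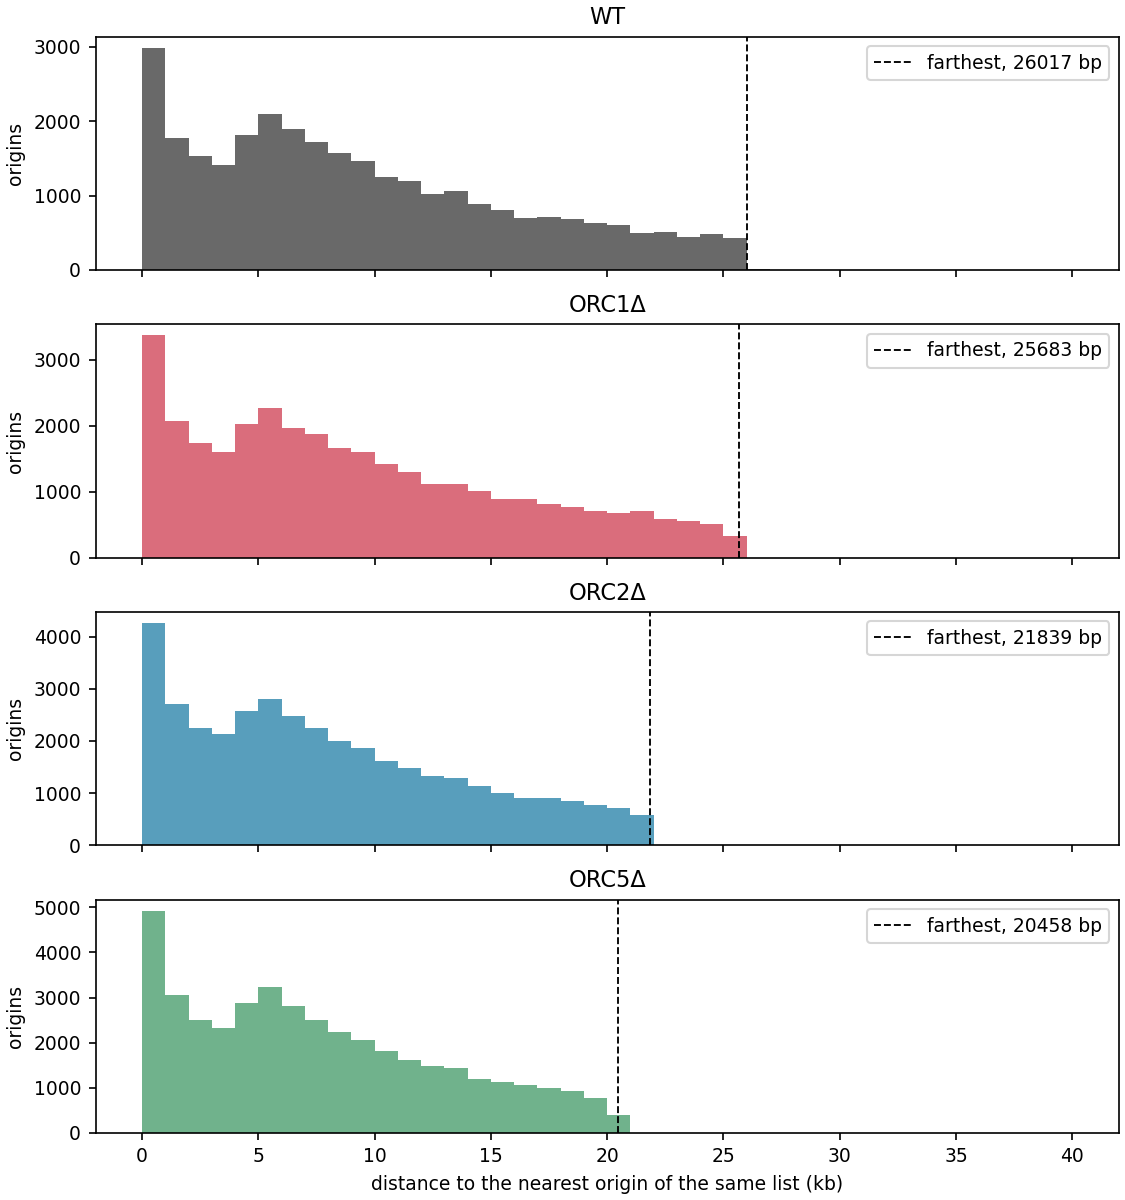
Number of origins (y axis) by distance to the nearest other origin of the same list (x axis, kb, bins of 1 kb), 1 panel per line, with a dashed line at the farthest. All 4 distributions end abruptly, and the farthest distance shortens from 26017 bp (WT) to 20458 bp (ORC5Δ).

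Overlapping entries of the 4 lists were joined, which gave 40 sites in these genes, and the sites are numbered within each gene from its 5′ end. To show what such sites look like, the 200 bases around the midpoint of 4 sites follow, on the plus strand of hg38. The first 3 are the most-read sites of MACROD2, WWOX, and FHIT over the 3 tables, and the last is the site with the largest fold change, chosen after its value was seen. Capitals mark runs of at least 3 G or 3 C.
MACROD2 site 3, chr20:14923949-14924148: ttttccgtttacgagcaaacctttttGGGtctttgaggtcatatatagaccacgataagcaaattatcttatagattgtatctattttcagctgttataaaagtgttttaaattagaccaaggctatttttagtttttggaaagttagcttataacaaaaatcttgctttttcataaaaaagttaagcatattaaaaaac
WWOX site 8, chr16:79158154-79158353: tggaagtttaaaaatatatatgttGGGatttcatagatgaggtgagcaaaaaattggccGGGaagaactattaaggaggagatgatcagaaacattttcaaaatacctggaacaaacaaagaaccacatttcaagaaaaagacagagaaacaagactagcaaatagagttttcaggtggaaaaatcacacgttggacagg
FHIT site 2, chr3:61194074-61194273: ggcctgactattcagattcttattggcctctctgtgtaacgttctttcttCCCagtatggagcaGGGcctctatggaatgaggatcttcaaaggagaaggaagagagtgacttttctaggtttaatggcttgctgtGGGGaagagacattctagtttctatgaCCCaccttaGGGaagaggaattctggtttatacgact
DLG2 site 2, chr11:85483934-85484133: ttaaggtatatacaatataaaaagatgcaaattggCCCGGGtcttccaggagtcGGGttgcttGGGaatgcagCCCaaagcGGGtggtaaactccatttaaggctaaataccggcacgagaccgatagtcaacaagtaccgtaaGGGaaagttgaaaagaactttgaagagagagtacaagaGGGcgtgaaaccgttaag

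The windows differed in composition. The MACROD2 window held a single run of G at a GC content of 27.5%, and the WWOX window held 2 at 35.5%. The FHIT window held 3 runs of G and 2 of C (44.5%), and the DLG2 window held 6 runs of G and 2 of C (45%). Windows of this width with at least 4 runs of the same letter, GGG on one strand or CCC for the other, were found at 4 of 6 (WT), 16 of 22 (ORC1Δ), 9 of 13 (ORC2Δ), and 15 of 28 (ORC5Δ) origins of the 9 genes. Over all origins of the lists the shares were 88.5%, 85.9%, 84.5%, and 86.4%, and such runs are a description of letters and not of a folded structure.

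The number of listed origins in these genes was small in every line and smallest in WT. WT cells had 6 origins in 3 of the 9 genes, a density of 0.422 origins per Mb (0.155 to 0.919). ORC1Δ cells had 22 in 6 genes, or 1.55 per Mb (0.97 to 2.34), ORC2Δ cells had 13 in 5 genes, or 0.915 per Mb (0.487 to 1.56), and ORC5Δ cells had 28 in 7 genes, or 1.97 per Mb (1.31 to 2.85). Since origins were listed in groups, they are not independent counts, and these intervals are too narrow and cannot set the lines apart.

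All protein-coding genes together held 14.2 (WT), 15.1 (ORC1Δ), 17.2 (ORC2Δ), and 18.9 (ORC5Δ) origins per Mb, which is 33.6-fold, 9.78-fold, 18.8-fold, and 9.59-fold the density in the 9 genes. Pooled density was also lower in longer genes. In WT, the pooled density was 24.4 per Mb in genes under 100 kb, 11.9 in genes of 100 to 300 kb, 8.28 in genes of 300 to 500 kb, 5.5 in the 313 other genes of at least 500 kb, and 3.83 in the 63 other genes of at least 1 Mb. Those 63 genes had 4.64, 4.79, and 5.78 origins per Mb in ORC1Δ, ORC2Δ, and ORC5Δ cells. The pooled density of the 9 genes was lower in each line. Single genes were closer: the median gene had 0, 1.58, 0.92, and 1.94 origins per Mb among the 9 and 1.41, 2.68, 1.81, and 2.66 among the 63, in WT, ORC1Δ, ORC2Δ, and ORC5Δ cells. Of the 313 genes, between 32.3% (ORC5Δ) and 40.6% (WT) had a density at or below the pooled density of the 9. In WT these were exactly the 127 genes without any origin. A gene without any origin was thus common: 40.6% of the 313 genes had none in WT and 26.5% had none in ORC5Δ cells, beside 6 and 2 of the 9 genes.

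**Figure D2:**
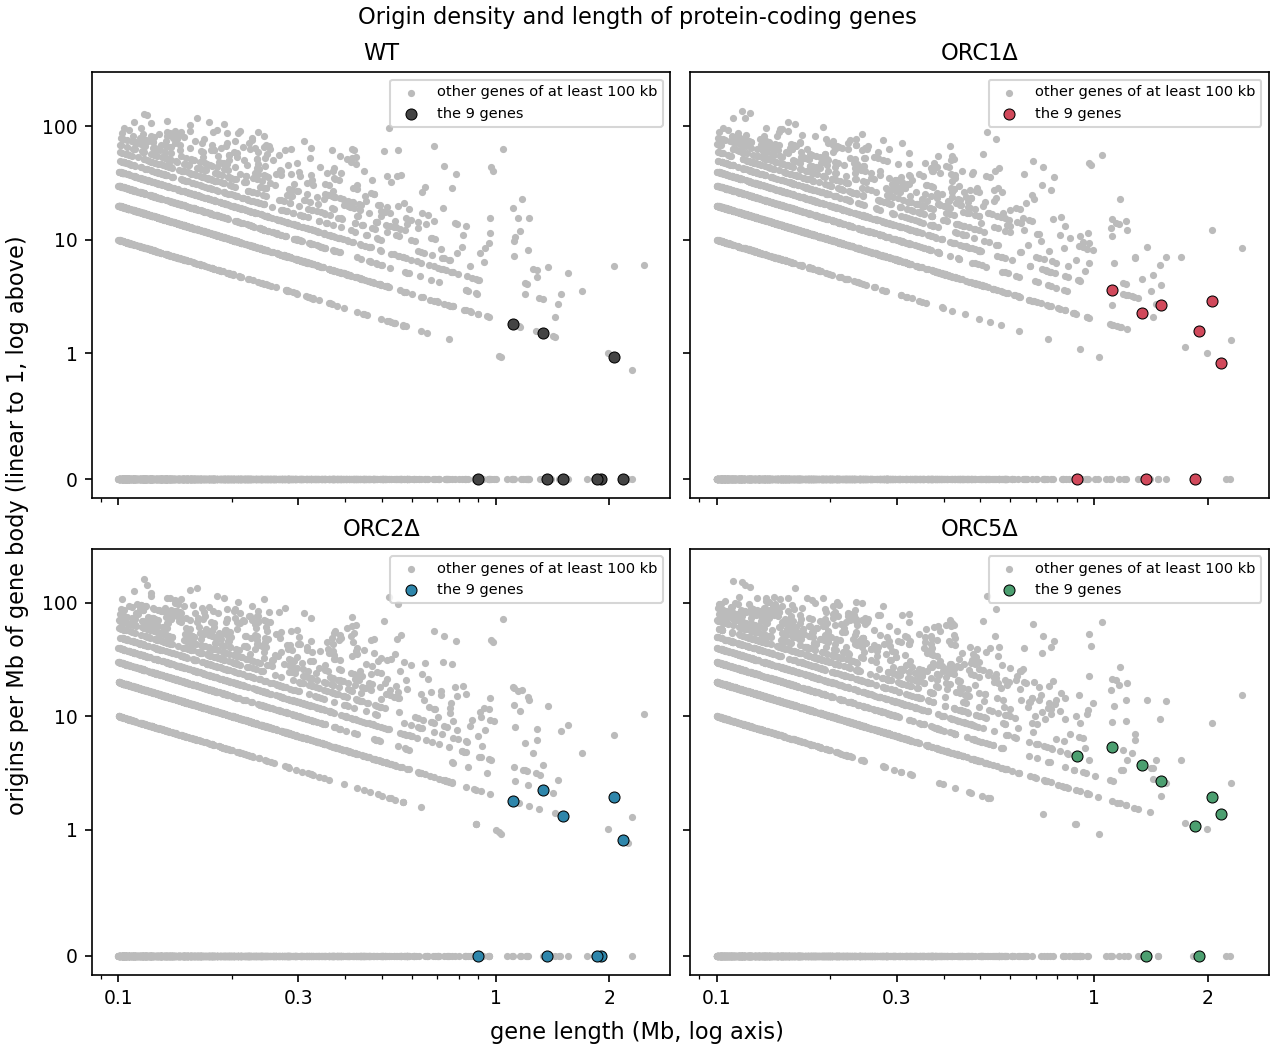
Origins per Mb of gene body (y axis, linear up to 1 and logarithmic above) against gene length (x axis, Mb, logarithmic) for protein-coding genes of at least 100 kb, 1 panel per line; grey points are other genes and coloured points the 9 genes. Genes of every length lie at 0, and 6 of the 9 genes do in WT and 2 in ORC5Δ cells; the highest densities belong to the shorter genes.

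Relative to WT, the number of origins in the 9 genes was 3.67-fold in ORC1Δ (1.44 to 11.1), 2.17-fold in ORC2Δ (0.768 to 6.95), and 4.67-fold in ORC5Δ cells (1.9 to 13.8, exact Clopper-Pearson). The 313 other genes of at least 500 kb changed by 1.19-fold (1.11 to 1.28), 1.23-fold (1.15 to 1.33), and 1.48-fold (1.38 to 1.58), and the whole lists by 1.11-fold (ORC1Δ) to 1.37-fold (ORC5Δ). Because these intervals count grouped origins as independent, they cannot tell whether the 9 genes differ from the other long genes in these ratios. The ratios of 15 other large genes at fragile sites, 1.47-fold, 1.63-fold, and 2.42-fold, lay inside the intervals of the 9 genes. All 3 ratios of the 9 genes rest on the same 6 WT origins in 3 groups, so their intervals are too narrow.

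**Figure D3:**
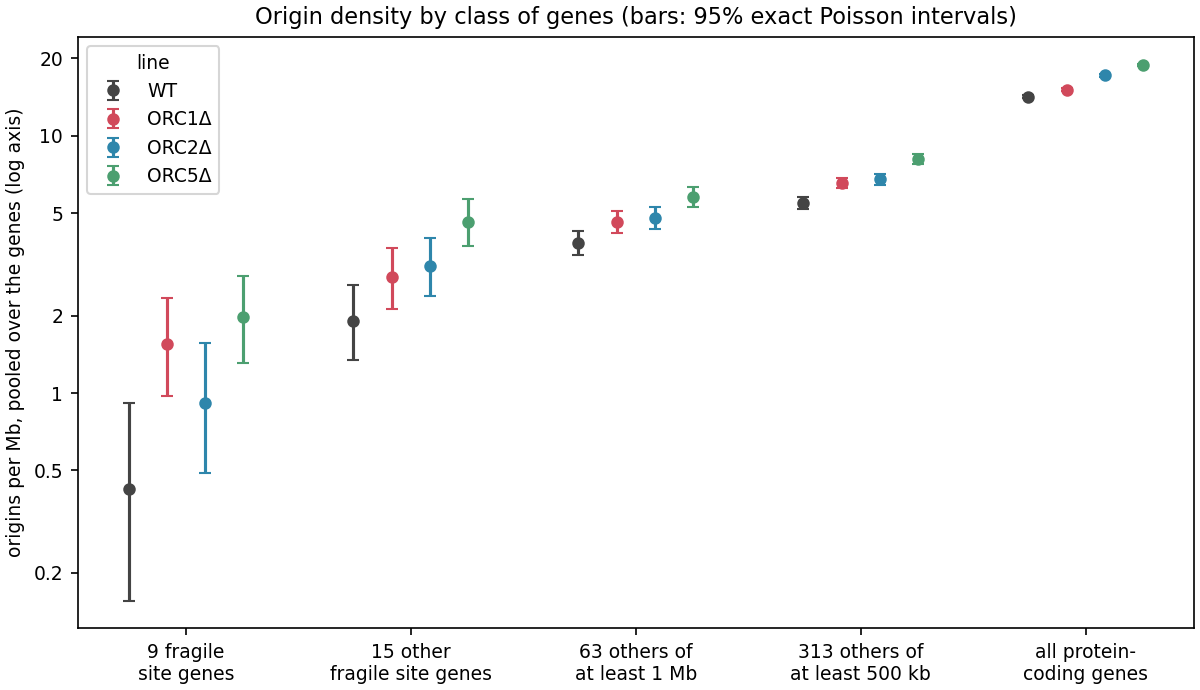
Pooled origins per Mb (y axis, logarithmic) in 5 classes of genes (x axis) and 4 lines (colours), with 95% exact Poisson intervals. The 9 genes lie lowest in each line, between 0.422 (WT) and 1.97 (ORC5Δ) per Mb.

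The genes differed from each other in which lines had origins. LSAMP (2, 3, 3, and 5 origins in WT, ORC1Δ, ORC2Δ, and ORC5Δ cells), MACROD2 (2, 6, 4, and 4), and WWOX (2, 4, 2, and 6) had origins in all 4 lines. FHIT (0, 4, 2, and 4) and DLG2 (0, 2, 2, and 3) had them in the 3 knockout lines and not in WT. LRP1B had origins in ORC1Δ cells only, 3 in number. IMMP2L (4 origins) and CTNNA3 (2 origins) had them in ORC5Δ cells only. NAALADL2 had none in any line, for which the exact Poisson upper bound is 2.69 per Mb. Single genes hold too few origins for an order: the highest gene density, 5.39 per Mb for WWOX in ORC5Δ cells, had an interval of 1.98 to 11.7, and the interval of FHIT in WT, with 0 origins, reached 2.45.

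**Figure D4:**
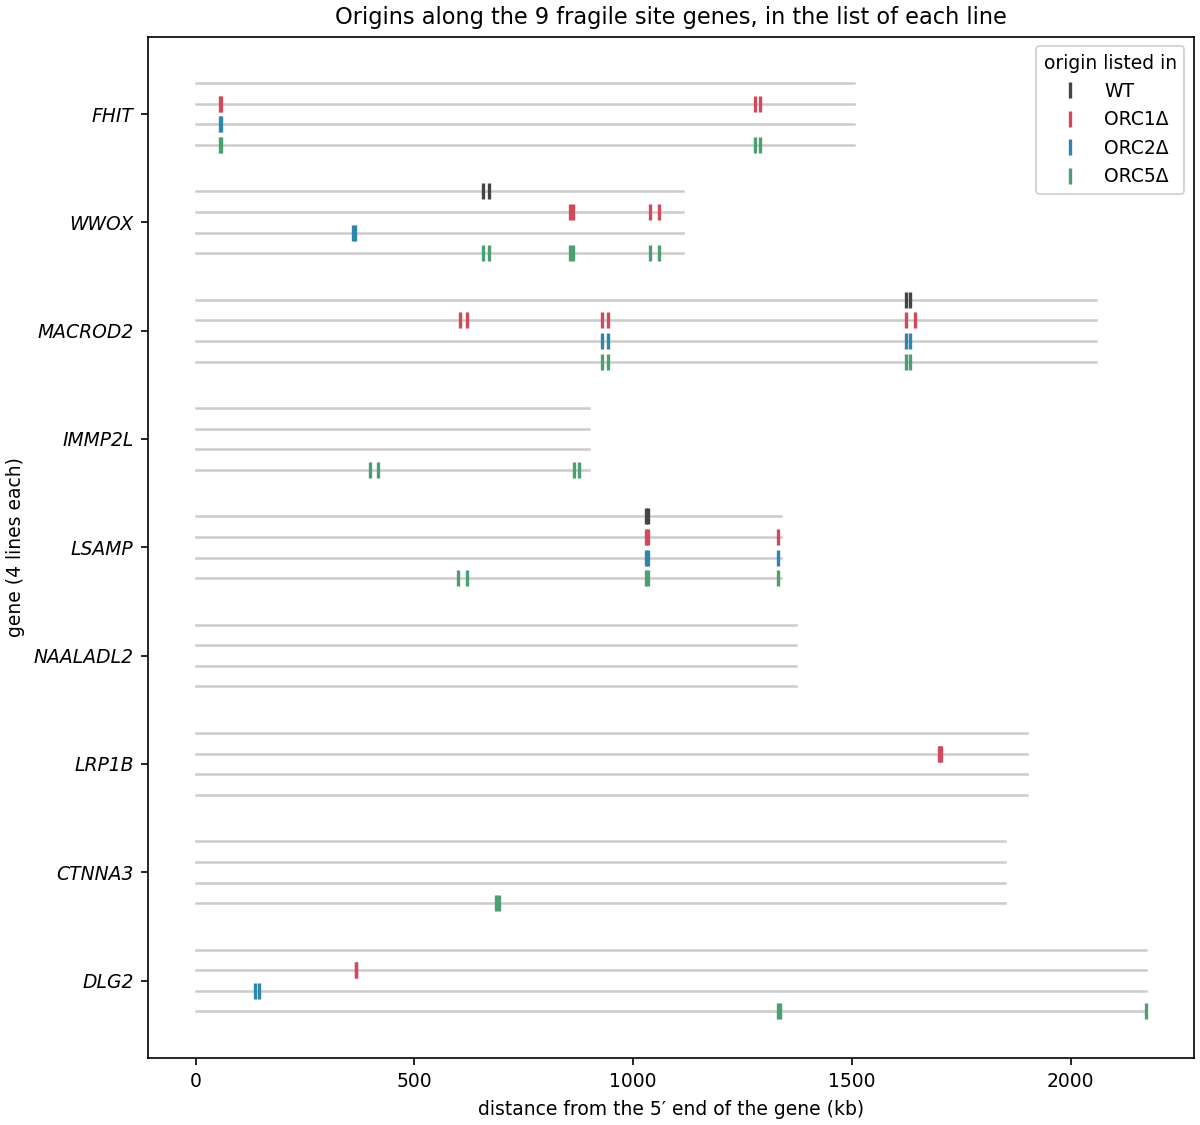
Position of each origin site along the 9 genes (x axis, kb from the 5′ end), with 4 grey tracks per gene, 1 per line; a tick marks a site listed in that line, drawn at the midpoint of the joined site. Ticks come in close groups, 4 of the 40 sites (in FHIT and DLG2) lie in the first 10% of their gene, and the groups of LSAMP near 1030 kb and MACROD2 near 1623 kb are the ones with ticks in all 4 tracks.

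Of the 40 sites, 23 were listed in 1 line, 8 in 2, 6 in 3, and 3 in all 4. The 3 sites common to all lines were LSAMP sites 3 and 4 and MACROD2 site 5. No site was listed in WT alone, and 34 were not in the WT list. Among these 34, 8 were listed for ORC1Δ alone, 4 for ORC2Δ alone, and 11 for ORC5Δ alone, 6 were shared by ORC1Δ and ORC5Δ, and 5 sites were in each of the 3 knockout lists: FHIT sites 1 and 2, MACROD2 sites 3 and 4, and LSAMP site 5. Sites within the widest neighbour limit of each other formed 20 groups, of which 18 had 2 or 3 sites. Of these groups, 11 were found in 1 line, 3 included WT, and 2 held sites of all 4 lines. Since every origin of a list has a near neighbour, the grouping is a property of the lists and no separate finding.

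Part of these sites is repeated sequence. Each site was cut into words of 31 bases, and the words were looked up on both strands of hg38. For 18 of the 40 sites no word occurred anywhere else, and for 29 at most 10% did. For 6 sites more than 50% of the words occurred elsewhere as well: all 3 sites of LRP1B (67.7%, 51.1%, and 63.9%) and LSAMP sites 2, 3, and 4 (52.9%, 73.9%, and 92.5%). A word of LSAMP site 4, the most-read site of all and one of the 3 common to every line, occurred at a median of 89 places. Reads at these 6 sites may belong to other copies of the sequence, which was not tested, so the LRP1B origins of ORC1Δ cells and the LSAMP group shared by the 4 lines are uncertain as origins of these genes. Read length and the treatment of reads with several matches are not given in the sources used here. Without the 6 sites, a choice made after seeing the data, the densities were 0.282 (WT), 1.2 (ORC1Δ), 0.774 (ORC2Δ), and 1.76 (ORC5Δ) per Mb.

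Within the genes, origins lay mostly in introns, and none was at the promoter. By the canonical transcripts, 36 sites were intronic, LSAMP site 5 and DLG2 site 7 overlapped the last exon with its 3′ UTR, and LSAMP sites 1 and 2 lay upstream of the canonical transcript but inside the gene body. All 8 WWOX sites were in intron 8, which spans 779 kb, and the 3 LRP1B sites were in intron 66. No site was within 2 kb of an annotated transcript start of its gene or within 50 kb of the 5′ end of the gene. In the 313 other long genes, 10.3% of WT, 8.44% of ORC1Δ, 8.92% of ORC2Δ, and 9.13% of ORC5Δ origins lay within 50 kb of the 5′ end. With 6 to 28 origins per line in the 9 genes, a share of this size could be missed by counting error, and FHIT sites 1 and 2 lie just past that distance. The first 10% of the gene from its 5′ end held 0 of 6 (WT), 2 of 22 (ORC1Δ, 9.09%), 4 of 13 (ORC2Δ, 30.8%), and 2 of 28 (ORC5Δ, 7.14%) origins of the 9 genes, where the other long genes had 13.1%, 11.7%, 12%, and 12%. The 4 ORC2Δ origins were FHIT sites 1 and 2 and DLG2 sites 1 and 2. When each gene was cut into 10 equal parts, these held, from the 5′ to the 3′ end, 4, 2, 1, 5, 6, 1, 3, 7, 5, and 6 sites.

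The site nearest the 5′ end was closest to it in FHIT, where sites 1 and 2 lay 56.3 and 57.3 kb into the gene in intron 2. DLG2 site 1 followed at 134.5 kb, in intron 3, and WWOX site 1 at 360.5 kb. In IMMP2L the first site was 398.3 kb from the 5′ end (intron 3), in LSAMP 600.3 kb, in MACROD2 604.2 kb (intron 4), in CTNNA3 686.4 kb (intron 7), and in LRP1B 1699 kb. Other annotated genes overlapped 5 of the sites: MACROD2-IT1 lay over MACROD2 sites 1 and 2, MACROD2-AS1 over MACROD2 site 3, and LRRTM3, a gene nested in CTNNA3, over CTNNA3 sites 1 and 2.

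Stretches without a listed origin were long. In WT, the gap between neighbouring origins that spans LRP1B was 6.37 Mb, and 22 of the 30173 gaps of the list were longer. The gaps across IMMP2L (4.95 Mb), CTNNA3 (4.69 Mb), NAALADL2 (3.07 Mb), FHIT (2.79 Mb), and DLG2 (2.74 Mb) followed, with between 40 (IMMP2L) and 120 (DLG2) longer gaps in the list. In ORC5Δ cells the longest gap touching each of these genes was shorter, at 3.91 Mb for LRP1B, 1.04 Mb for IMMP2L, 3.18 Mb for CTNNA3, 2.43 Mb for NAALADL2, 1.29 Mb for FHIT, and 1.88 Mb for DLG2. That list holds more origins, and its gaps are shorter in general. In the same order of genes, 38, 437, 62, 106, 313, and 162 of its 41308 gaps were longer still, beside 22, 40, 47, 102, 117, and 120 in WT. In ORC2Δ cells, the gap across CTNNA3 was longer than in WT, at 5.62 Mb. The neighbourhood was sparse too. The 1 Mb on either side of each gene, 18 Mb in all, held 3.5 (WT), 4.89 (ORC1Δ), 4.5 (ORC2Δ), and 5.5 (ORC5Δ) origins per Mb, which is below the density of all protein-coding genes and above that inside the 9 genes.

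The tables allow the reads to be compared at the same origin between WT and a knockout line. The 9 genes held 25 origins of the ORC1Δ table, 15 of the ORC2Δ table, and 28 of the ORC5Δ table. Levels are given as RPM, the reads of an origin scaled to all reads of its line in the table, and a log2 fold is that of knockout over WT. The median origin of the 9 genes had 80, 83, and 78.5 WT reads in the 3 tables, beside 114, 112, and 110 over all origins. At such depth the interval of a single log2 fold is wide, and it included 0 at most member origins of each table.

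At 1.5-fold, few origins of the 9 genes passed in any line. In ORC1Δ cells, 2 of 25 were up and 0 were down, beside 7.04% up and 3.95% down over all 42162 origins of the table, and after GC correction, which removes the running median of the log2 fold over GC content, 0 of the 25 were up. In ORC2Δ cells, 1 of 15 was up and 0 were down, beside 4.66% and 3.58%. In ORC5Δ cells, 1 of 28 was up and 0 were down, beside 2.08% and 0.680%. These counts are too small to be set apart from the background, and no site was up or down in all 3 tables. The median log2 fold was 0.15, −0.10, and 0.19 in ORC1Δ, ORC2Δ, and ORC5Δ cells, where the medians over all origins were −0.01, −0.04, and −0.0032. A larger share of the members than of all origins was in the knockout list alone. Such rows lean towards the knockout, so these medians are not like for like.

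The lists changed more than the reads. In the ORC1Δ table, 19 of the 25 origins were in the ORC1Δ list and not in the WT list, beside 28.6% of all origins, and 3 were in the WT list alone, beside 20.7%. In the ORC2Δ table, 9 of 15 were in the knockout list alone, beside 32.0%, and 2 in the WT list alone, beside 14.6%. In the ORC5Δ table, 22 of 28 were in the knockout list alone, beside 35.3%, and 0 in the WT list alone, beside 11.3%. The knockout-only origins of the 9 genes had a median of 76, 78, and 71 WT reads against 96, 98, and 108 knockout reads in the ORC1Δ, ORC2Δ, and ORC5Δ tables. Their median log2 folds were 0.18, 0.08, and 0.22, and over all knockout-only origins 0.31, 0.11, and 0.11. WT reads were thus counted at every one of these origins, and a line without a listed origin there was not a line without reads. The part that peak calling and grouping have in the difference between lists and reads was not tested.

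**Figure D5:**
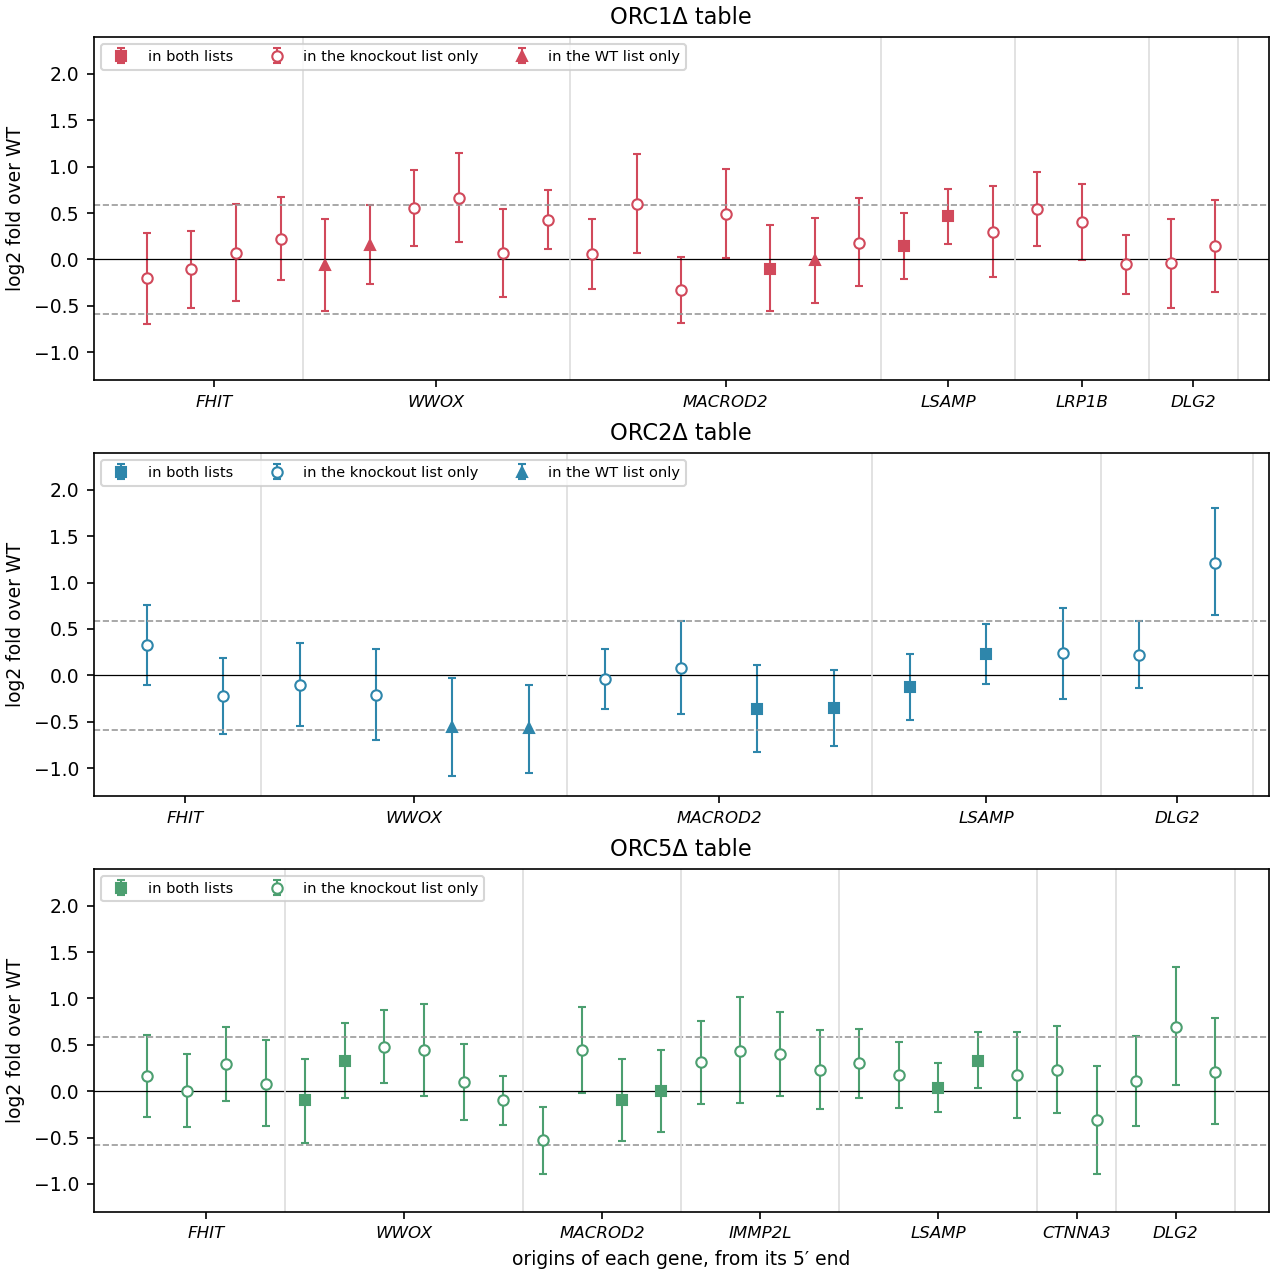
Log2 fold of reads over WT (y axis) of each origin in the 9 genes, ordered from the 5′ end of each gene (x axis), in the 3 tables; bars are 95% exact Clopper-Pearson intervals and dashed lines mark 1.5-fold. The points lie between −0.57 and 1.21, 4 of them pass the upper line and none passes the lower one.

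Most of these rows are in a table because the knockout list called them, 19 of 25 (ORC1Δ), 9 of 15 (ORC2Δ), and 22 of 28 (ORC5Δ), and such rows lean towards the knockout over the whole table. The pooled folds and intervals that follow carry this lean and are given as descriptions, not as support for a change. Pooled over the 9 genes, 2290 WT reads and 2724 ORC1Δ reads gave 357 and 407 RPM, a log2 fold of 0.19 (0.11 to 0.27). In the ORC2Δ table, 1383 WT and 1613 ORC2Δ reads gave 208 and 207 RPM, a log2 fold of −0.01 (−0.12 to 0.09). In the ORC5Δ table, 2512 WT and 3436 ORC5Δ reads gave 365 and 403 RPM, a log2 fold of 0.14 (0.07 to 0.22). The origins of the 9 genes are poorer in GC than most. After the running median of the log2 fold over the GC content of all origins was removed, the pooled values were 0.01 (ORC1Δ), −0.0042 (ORC2Δ), and 0.12 (ORC5Δ). The pooled ORC1Δ log2 fold was thus close to that of origins of like GC content. Without the 6 mostly repeated sites, and with no GC correction, the pooled values were 0.15 (ORC1Δ), −0.03 (ORC2Δ), and 0.14 (ORC5Δ).

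DLG2 held the largest single change. Its site 2, 144.3 kb from the 5′ end in intron 3, had 36 WT reads (5.42 RPM) and 98 ORC2Δ reads (12.6 RPM). The level in ORC2Δ cells was 2.32-fold that in WT, a log2 fold of 1.21 (0.65 to 1.80). The site is in none of the other lists, so no other table gives it a value. Of its 31-base words, 39.2% occurred elsewhere in the genome. In 10 loci with a 28S ribosomal RNA name in RefSeq, 19.6% occurred, which was seen at no other site. The part of reads from such copies in the change was not tested. Over both of its ORC2Δ origins, both in the table through the knockout list alone, DLG2 had a log2 fold of 0.53 (0.23 to 0.83). The neighbour, site 1, had 113 WT reads and 155 ORC2Δ reads, a log2 fold of 0.22 (−0.14 to 0.59). DLG2 site 6 had 33 WT and 66 ORC5Δ reads, 1.61-fold, a log2 fold of 0.69 (0.07 to 1.34), and none of its words was repeated. It is in the table through the ORC5Δ list alone, so this value does not support a change. The 2 DLG2 origins of ORC1Δ cells, sites 3 and 4, had log2 folds of −0.04 and 0.14 with intervals across 0.

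The WWOX sites with an interval above 0 and those with an interval below 0 were different ones. Each of these sets entered the tables through the list in which it was called. Sites 5 and 6, at 855 and 862.1 kb, are in the ORC1Δ and ORC5Δ tables through the knockout lists alone. Site 6 had 60 WT and 99 ORC1Δ reads, 1.58-fold, a log2 fold of 0.66 (0.19 to 1.15) that GC correction lowered to 0.46, below the threshold, and beside ORC5Δ 56 WT and 94 ORC5Δ reads, a log2 fold of 0.44 (−0.05 to 0.94). Site 5 had 85 WT and 130 ORC1Δ reads, a log2 fold of 0.55 (0.15 to 0.96), and 85 WT and 147 ORC5Δ reads, a log2 fold of 0.48 (0.09 to 0.88). These WT reads are the same libraries in both tables, so the values are not independent. Sites 3 and 4 are in the ORC1Δ and ORC2Δ tables through the WT list alone. In the ORC2Δ table they had 70 WT against 56 ORC2Δ reads and 86 against 68, log2 folds of −0.56 (−1.09 to −0.03) and −0.57 (−1.05 to −0.10), just inside the 1.5-fold line at 0.58. Sites 1 and 2, in that table through the ORC2Δ list alone, had log2 folds of −0.10 and −0.21, both with intervals across 0. Over its 4 origins in the ORC2Δ table, WWOX had a log2 fold of −0.34 (−0.58 to −0.11), and −0.33 after GC correction. Over 6 origins in the ORC1Δ table it had 0.33 (0.16 to 0.50), which GC correction lowered to 0.15, and over 6 beside ORC5Δ it had 0.13 (−0.02 to 0.28). The pooled values of the lines cover different sites and are not set against each other. At sites 3 and 4 in ORC1Δ cells the log2 folds were −0.06 and 0.16, and in ORC5Δ cells −0.10 and 0.33, all with intervals across 0. WWOX site 8, the most read of the gene, had 142 WT and 199 ORC1Δ reads, a log2 fold of 0.43 (0.11 to 0.75), and 235 WT and 272 ORC5Δ reads, −0.10 (−0.36 to 0.16), over an origin that was wider in the ORC5Δ table.

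MACROD2 held sites of all kinds. Site 2, in the ORC1Δ list only, had 50 WT and 79 ORC1Δ reads, 1.52-fold, a log2 fold of 0.60 (0.07 to 1.14) that GC correction lowered to 0.39, below the threshold. Site 3, the most read of the gene and listed in the 3 knockout lines and not in WT, had more WT than knockout RPM in each table. Its WT and knockout levels were 23.2 and 18.5 RPM in the ORC1Δ table, a log2 fold of −0.33 (−0.68 to 0.03). They were 23.5 and 22.8 RPM in the ORC2Δ table, −0.04 (−0.36 to 0.28), and 20.8 and 14.4 RPM in the ORC5Δ table, −0.53 (−0.89 to −0.17), the lowest log2 fold of that table in the 9 genes. At this site the lists and the reads point in opposite directions in the ORC5Δ table, while the ORC1Δ and ORC2Δ intervals include 0. The WT reads of the 3 tables come from the same libraries. The neighbour of site 3, site 4, listed in the same lines, had log2 folds of 0.49 (0.02 to 0.97), 0.08 (−0.42 to 0.59), and 0.44 (−0.02 to 0.91). Site 5, listed in all 4 lines and made of unique sequence, had log2 folds of −0.10, −0.36, and −0.10, with intervals across 0.

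LSAMP site 4 had 163 WT and 235 ORC1Δ reads, a log2 fold of 0.47 (0.17 to 0.76), 145 WT and 200 ORC2Δ reads, 0.23 (−0.09 to 0.55), and 151 WT and 236 ORC5Δ reads, 0.33 (0.03 to 0.64). It is the site of which 92.5% of the words lie elsewhere. LSAMP site 5, in the 3′ UTR and in unique sequence for the most part, had log2 folds of 0.30, 0.24, and 0.17, each with an interval across 0. LRP1B site 1 had 90 WT and 136 ORC1Δ reads, a log2 fold of 0.54 (0.14 to 0.94) that GC correction lowered to 0.29. Site 2 had 90 and 124 reads (0.40, −0.0012 to 0.81), and site 3, the most read, had 169 and 170 (−0.05, −0.37 to 0.26). These LRP1B sites are mostly repeated sequence and are in the table through the ORC1Δ list alone, so their values do not support a change.

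In FHIT, no interval of a read fold left out 0, although all its origins were knockout-only. Site 1 had 74 WT and 67 ORC1Δ reads, a log2 fold of −0.20 (−0.70 to 0.29), 78 WT and 115 ORC2Δ reads, 0.33 (−0.10 to 0.76), and 75 WT and 104 ORC5Δ reads, 0.16 (−0.28 to 0.61). Site 2, the most read of the gene, had log2 folds of −0.10, −0.22, and 0.00089, and the pooled reads of FHIT gave −0.0022 (−0.23 to 0.23), 0.04 (−0.25 to 0.33), and 0.13 (−0.07 to 0.34). By the lists, FHIT had 4, 2, and 4 origins in the knockout lines against 0 in WT. The 4 IMMP2L origins of ORC5Δ cells had log2 folds of 0.31, 0.43, 0.40, and 0.23, each with an interval across 0, and pooled reads of 261 in WT and 407 in ORC5Δ cells gave 0.33 (0.10 to 0.56). All 4 are in the table through the ORC5Δ list alone, so this value does not support a change. The CTNNA3 origins of ORC5Δ cells had log2 folds of 0.23 (−0.23 to 0.70) and −0.31 (−0.89 to 0.27), the second of them from 53 reads in each line.

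The origins of the 9 genes were poorer in GC than those of the lists. Origins in the 9 genes had a median of 45.7% G and C (WT), 45.4% (ORC1Δ), 46.7% (ORC2Δ), and 45% (ORC5Δ), beside 54.8%, 52.3%, 53.3%, and 53.2% over all origins, and still above the 37% of the gene bodies. The range over the 40 sites was 36% (CTNNA3 site 2) to 56.2% (LSAMP site 1). The absolute GC skew, the difference between G and C over their sum without its sign, had a median of 0.329, 0.453, 0.415, and 0.387 at these origins and 0.341, 0.382, 0.345, and 0.345 over all. An ATCC repeat of at least 4 copies was found in 1 of 6, 2 of 22, 0 of 13, and 3 of 28 member origins in WT, ORC1Δ, ORC2Δ, and ORC5Δ cells, and in 2.07%, 2.91%, 2.52%, and 2.39% of all origins. With 0 to 3 such origins per line, and sites listed in several lines counted in each, the member counts are too small to be set against these shares.

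A fixed list of 15 other large genes at fragile sites was set beside the 9. Together these genes held 1.91 origins per Mb in WT (1.35 to 2.62), 2.82 in ORC1Δ (2.13 to 3.66), 3.12 in ORC2Δ (2.39 to 4), and 4.63 in ORC5Δ cells (3.73 to 5.68), above the 9 genes and below the 63 genes of at least 1 Mb, some of which are among the 15, in each line. Relative to WT they changed by 1.47-fold (0.959 to 2.29), 1.63-fold (1.07 to 2.51), and 2.42-fold (1.64 to 3.63). Of the 15, 6, 5, 5, and 3 had no origin in WT, ORC1Δ, ORC2Δ, and ORC5Δ cells. DAB1, an adaptor of reelin signalling, had 8, 11, 13, and 21 origins. DMD, which encodes dystrophin, had 0, 0, 2, and 0, and PDE4D, a cAMP phosphodiesterase, had 0, 0, 0, and 4.

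Among the 814 other protein-coding genes of at least 300 kb, ROBO1, CNTNAP2, CDH12, and MALRD1 were among the 5 with origin densities most like the pooled 9 genes over the 4 lines. Likeness was the Euclidean distance between the 4 values of log2 of origins per Mb, with 0.5 origins added, and it ran from 1.2 (ROBO1) to 1.6 (MALRD1). ROBO1, an axon guidance receptor, had 0, 2, 0, and 2 origins in WT, ORC1Δ, ORC2Δ, and ORC5Δ cells. CNTNAP2, a cell adhesion protein of axons and one of the 15 genes, had 2, 3, 3, and 6, the cadherin gene CDH12 had 0, 2, 2, and 3, and MALRD1 had 0, 0, 0, and 2. Low GC content and few origins went together among long genes: over the 313 others of at least 500 kb, the Spearman correlation of GC content and WT density was 0.7, a description over genes that share 1 list.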

How the data were processed

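SNS-seq of 4 HCT116 p53-/- lines, 2 biological replicates each, was analysed from the deposited files. According to the study's methods and the labels, the authors trimmed reads (Trim Galore 0.6.4), aligned them to hg38 (Bowtie), called peaks in each replicate (MACS2), and kept as origins the peaks found in both. The deposited tables hold raw read counts per origin, for which the authors merged the replicates of a line and joined overlapping origins of WT and 1 knockout line. The counting tool and the treatment of duplicate reads are not given in the sources used here, and the versions of Bowtie and MACS2 are left out because those listed in the submitters' processing notes could not be read with certainty. Columns of other samples numbered 0. Merging leaves 1 value per line, so precision reflects counting error only, and reads without molecular identifiers are not independent molecules.

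Contig names and lengths of all intervals were checked against hg38. Origins were assigned to gene bodies of GENCODE release 44 by an overlap of at least 1 bp, on chromosomes 1 to 22, X, and Y. RPM used the total of each line in its table, without a filter or a pseudocount, and a change was called at 1.5-fold, as in the study's methods. GC correction removed the running median of the log2 fold over 2001 origins ordered by GC content. Sequence came from the hg38 reference, and words of 31 bases were counted on all its contigs other than alternate ones. Values were computed in Python 3.11.15 with scipy 1.17.1, pandas 2.3.3, numpy 2.4.6, matplotlib 3.10.9, and pysam 0.24.0, TMM factors came from edgeR 4.0.16 in R 4.3.3, and the code was tested on simulated data. The genes, lists, and comparisons were chosen with earlier results of these data known. Named were all 9 genes, the most-read site and the site nearest the 5′ end of each, sites called in the same direction in all 3 tables (none), the 3 highest and 3 lowest log2 folds per table among origins with at least 50 reads, runs of at least 5 neighbouring origins that moved one way (none), up to 4 examples of the 15 other fragile site genes, and the 5 genes of nearest density. Some genes and sequences that this rule names are not reported here. All other named sites were chosen after their values were seen. Alternatives were another assignment to genes, wide origins only, other scalings, thresholds, and filters, and leaving out each gene.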

Additional observations from a re-analysis of the deposited data

How the results depend on the processing

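Of 159 alternative values for the densities, pooled log2 folds, and counts of called origins, 137 were classed as close to the reported value. Another 22 moved, and 0 reversed a call. The class of close values is wide: beside 0.422 per Mb in WT, it takes in 0.282 without the mostly repeated sites and 0.305 without WWOX. Some alternatives could not move a value, such as a filter of 50 reads, which every member origin passes. Among 32 other values, 21 moved. When origins narrower than their list's median width were dropped, the density in the 9 genes was 0.141 (WT), 0.422 (ORC1Δ), 0.282 (ORC2Δ), and 0.633 (ORC5Δ) per Mb. With GC correction, the pooled ORC1Δ log2 fold was 0.01, and 0 ORC1Δ origins were up. At a lower threshold, a ratio of 5 to 4, 8 of the 25 member origins of the ORC1Δ table were up and 1 was down. Of the 15 beside ORC2Δ, 2 were up and 4 down, and of the 28 beside ORC5Δ, 8 were up and 1 down. Shares over all origins at this threshold are not given here, and most of these rows entered through the knockout list. The counts thus do not support a direction of change. At 2-fold, 0 were up beside ORC1Δ, 1 beside ORC2Δ (DLG2 site 2), and 0 beside ORC5Δ, and 0 were down in any table. With at least 200 reads of both lines together, 0 origins were up in any of the 3 lines. The origins up at 1.5-fold held 99 to 159 such reads, so this filter removed each of them. By presence in 1 list, 19 origins were gained and 3 lost in ORC1Δ, 9 gained and 2 lost in ORC2Δ, and 22 gained in ORC5Δ cells. By construction, the lower threshold leaves more origins, and the stricter fold and the read filter leave fewer. The cause of the other shifts was not tested.

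Leaving out each gene in turn gave densities of 0.305 to 0.499 (WT), 1.32 to 1.78 (ORC1Δ), 0.741 to 1.06 (ORC2Δ), and 1.68 to 2.27 (ORC5Δ) per Mb. The pooled ORC2Δ log2 fold, −0.01 with an interval across 0, ranged from −0.09 without DLG2 to 0.07 without WWOX. No paired analysis was possible because the replicates of a line were merged before deposit and the columns carry no replicate numbers, and for the same reason no replicate could be left out.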
